A study of Mus musculus with 3 samples.

Results

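The cells described here are T cells that the authors' annotation places in the Cd4 identity and the Cd4 class. They had few or no detected transcripts of cell division genes and none of Foxp3 or CD8. They were selected on these measured values themselves, as cells with at least 1 UMI (unique molecular identifier, a tag that marks 1 captured transcript) of Cd4, 0 UMIs of Foxp3, Cd8a and Cd8b1, and fewer than 2 UMIs summed over the cell division genes Mki67, Top2a, Cdk1 and Birc5. The rule found 971 of 5564 cells, or 17.5% (exact binomial 95% interval 16.5% to 18.5%), and 39.2% of the 2477 cells of the Cd4 class. They are called conventional Cd4 cells below. Of the 2477 Cd4 class cells, 1570 had a Cd4 UMI, 1273 of those had no Foxp3 UMI, 1169 also had no UMI of Cd8a or Cd8b1, and 971 also stayed under the cell division sum.

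The cells came from tumors grown under the skin in matrigel from B16F10, a transplantable mouse melanoma line, that were not treated. On day 1 after the tumor cells, mice received an intravenous transfer of purified T cells with an open receptor repertoire, CD4 cells marked by CD45.1 or CD8 cells marked by CD45.2, and tumors of 10 mice were taken on day 11 and pooled. Sorting gave 4 populations, namely CD4 and CD4 with CD8 from the CD45.1 cells and CD8 and CD8 with CD4 from the CD45.2 cells. Each was given a hashtag, and about 6200 cells were loaded for a droplet library that reads the 5′ end of transcripts. The annotation numbers the hashtags 1 to 4, and no label ties a number to a sorted population. All cells thus share 1 pool and 1 library, there is no replicate of any group, and no test or p-value is given. The hashtag samples are portions of that pool, and values within them are shown as portions, not as replicates. Each hashtag marks a different sorted population, so these portions are not alike. Differences between hashtag samples cannot be told apart from the sort.

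Conventional CD4 T cells recognise peptides on MHC class II molecules and help other immune cells, in part through CD40 ligand on their surface. They can take on programs named for the cytokines they make, such as Th1 (interferon gamma) and Th17 (interleukin 17), while Foxp3 marks regulatory T cells, which restrain responses. In tumors they are found beside CD8 T cells, which carry the granule proteases and perforin used to kill target cells.

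Part of the cells showed an interferon response, a set of genes switched on when type I or type II interferon binds its receptor. The interferon-stimulated response element, searched here on both strands as 2 copies of GAAA with any 2 bases between them, was present in the 250 bases before the start of 5 of the 8 genes of the interferon list that have an entry in the RefSeq promoter table, namely Rsad2, Ifit1, Ifit3, Isg15 and Bst2. It was present in 821 of all 27025 promoters of that table (3.04%). The promoters of 4 of these genes are shown because the same genes set apart 1 cluster of conventional Cd4 cells, described further on. They are printed 5′ to 3′ on the strand of the gene, from RefSeq on build GRCm38.p6, with the matches in capitals. A match is a description of the letters and not a bound site, and the number after each gene is where the first match begins relative to the start of the gene.
Rsad2 (chr12:26456453-26456702, minus strand, 1 match, first at -120): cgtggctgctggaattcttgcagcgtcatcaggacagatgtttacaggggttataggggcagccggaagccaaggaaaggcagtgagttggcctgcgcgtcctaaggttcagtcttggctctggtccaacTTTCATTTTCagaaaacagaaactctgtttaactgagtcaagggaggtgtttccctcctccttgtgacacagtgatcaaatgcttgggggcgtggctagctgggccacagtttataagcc
Ifit1 (chr19:34640639-34640888, plus strand, 2 matches, first at -104): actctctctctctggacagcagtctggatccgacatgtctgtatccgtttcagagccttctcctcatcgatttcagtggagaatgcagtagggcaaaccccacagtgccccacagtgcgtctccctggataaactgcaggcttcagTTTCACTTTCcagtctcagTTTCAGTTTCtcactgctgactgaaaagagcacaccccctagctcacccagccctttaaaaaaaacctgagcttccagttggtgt
Ifit3 (chr19:34583279-34583528, plus strand, 2 matches, first at -156): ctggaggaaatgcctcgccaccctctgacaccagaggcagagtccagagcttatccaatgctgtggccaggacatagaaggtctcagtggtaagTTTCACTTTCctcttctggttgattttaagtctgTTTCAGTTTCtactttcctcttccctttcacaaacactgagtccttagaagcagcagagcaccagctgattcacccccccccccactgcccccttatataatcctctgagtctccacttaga
Isg15 (chr4:156200819-156201068, minus strand, 3 overlapping matches, first at -78): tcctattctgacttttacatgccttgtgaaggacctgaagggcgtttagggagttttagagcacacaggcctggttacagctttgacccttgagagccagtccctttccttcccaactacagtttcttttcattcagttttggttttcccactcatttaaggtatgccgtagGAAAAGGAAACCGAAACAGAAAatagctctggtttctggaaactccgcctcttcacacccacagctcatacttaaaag
Oasl2, Irf7 and Ifi44 had none of these letters in that window. The promoter of Usp18 was not analysed here.

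The conventional Cd4 cells held 3895310 UMIs, with a median of 3560 per cell (lowest 521, highest 20682) and a median of 1512 genes. The 4593 other cells had a median of 3979 UMIs. In addition, 2 narrower groups of cells were used for comparison, both also under the cell division sum. The first is the 496 Cd4 class cells with at least 1 Foxp3 UMI (median 3219 UMIs), called Foxp3 cells below, and the second is the 1855 Cd8 class cells with a UMI of Cd8a or Cd8b1 and none of Cd4 or Foxp3 (median 3833 UMIs), called Cd8 cells below. Of the Foxp3 cells, 51.4% had a Cd4 UMI, since the rule for them did not ask for one. That rule also set no limit on UMIs of Cd8a or Cd8b1. With each cell thinned to 2000 UMIs, Cd8b1 was seen in 15.2% and Cd8a in 6.29% of Foxp3 cells. Conventional Cd4 cells had neither, by their rule, so these groups are not matched on CD8. UMIs of at least 2 T cell receptor beta V genes, at 2 or more each, were used as a sign of doublets and were seen in 9.17% of conventional Cd4 cells, 9.07% of Foxp3 cells and 12.9% of Cd8 cells. Genes of melanoma, B cells or macrophages and monocytes, at 2 or more UMIs summed, were seen in 4.84%, 6.25% and 6.79%. Levels are given as CPM, the counts of a gene per 1000000 UMIs summed over a group's cells, with exact Poisson intervals. All intervals are at 95% and cover counting error only, not differences between mice.

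Conventional Cd4 cells were found in every hashtag sample, at 453 of 1596 cells in sample 1 (28.4%, interval 26.2% to 30.7%), 321 of 1735 in sample 2 (18.5%), 54 of 1119 in sample 3 (4.83%) and 143 of 1114 in sample 4 (12.8%). Within the Cd4 class of each sample they made up 39.8%, 42.5%, 26.7% and 37.3%. Sample 3 was lowest on both counts, and values from its 54 cells are the least precise. The sorted populations included CD8 cells, and why conventional Cd4 cells were found in every hashtag sample was not tested.

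The cells at the edges of the rule show what each threshold did. The 522 members with exactly 1 Cd4 UMI and the 449 members with more differed little in Cd40lg, seen in 52.1% and 57.5%, and in Serpinb1a, seen in 22.6% and 19.4%. The 527 otherwise matching cells with no Cd4 UMI, just outside, had Cd40lg in 47.4% and Serpinb1a in 21.8%, at a median of 2955 UMIs against 3401 for the members with 1 Cd4 UMI. Cells with 1 Foxp3 UMI, 56 in number, stood further apart, with Cd40lg in 10.7%, Cxcr6 in 14.3%, Ikzf2 in 69.6% and Serpinb1a and Il17re in none. The 62 cells kept out by 1 Cd8a or Cd8b1 UMI had Cd40lg in 58.1% and Cxcr6 in 66.1%. Stmn1, a cell division gene that the rule did not use, was seen in 15.6% of the 173 members with a cell division sum of 1 and in 41.9% of the 31 cells just outside with a sum of 2. The medians of these groups were 3686 and 5147 UMIs, so these shares are not at equal depth.

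Besides Cd4, 4 genes were given as markers of these cells, and all 4 were higher in them than in both other groups. Because the markers were chosen with these data known, their levels are a description. Cd40lg encodes CD40 ligand, the main signal by which CD4 T cells help B cells and dendritic cells. Its level in conventional Cd4 cells was 239 CPM (224 to 255), with 235, 243, 279 and 233 CPM in samples 1 to 4. In all Foxp3 cells it was 32.8 CPM, and in all Cd8 cells 23.6 CPM. Cd40lg in samples 1 to 4 of the Foxp3 cells was 35.8, 34.2, 28.3 and 23.9 CPM, and in those of the Cd8 cells 28.1, 24.3, 22.2 and 22.9 CPM. Every sample of conventional Cd4 cells was above every sample of both other groups, with no overlap.

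Serpinb1a encodes an inhibitor of granule and neutrophil serine proteases. It stood at 74.8, 85.0, 115 and 101 CPM in samples 1 to 4 of conventional Cd4 cells. In Foxp3 cells Serpinb1a was at 21.5, 23.5, 0 and 8.95 CPM, and in Cd8 cells at 4.89, 4.20, 4.04 and 8.03 CPM. The groups did not overlap. Il17re, a subunit of the receptor for interleukin 17C, was at 26.6, 48.7, 19.96 and 30.3 CPM in conventional Cd4 cells. Foxp3 cells had 5.11, 4.28, 0 and 5.97 CPM of Il17re, which rest on 9 UMIs in all. In the 1855 Cd8 cells not 1 UMI of Il17re was counted, which allows a level of up to 0.379 CPM, taken as 3 UMIs over these cells. The order for Il17re was thus conventional Cd4 cells, Foxp3 cells and then Cd8 cells.

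Asb2, the substrate-recognition part of a ubiquitin ligase, separated conventional Cd4 cells from Cd8 cells more than from Foxp3 cells. Its level was 96.4, 96.5, 74.8 and 150 CPM in samples 1 to 4 of conventional Cd4 cells, 59.3, 87.7, 28.3 and 59.7 CPM in Foxp3 cells and 9.78, 4.20, 8.42 and 2.87 CPM in Cd8 cells. The second sample of Foxp3 cells lay above the third of conventional Cd4 cells, so these ranges overlapped, while no Cd8 value came near them. Cells with a UMI were 54.6% of conventional Cd4 cells for Cd40lg, 21.1% for Serpinb1a, 10.8% for Il17re and 24.2% for Asb2. The shares in Cd8 cells were 7.60%, 1.67%, 0% and 1.94%, where 0 of 1855 cells for Il17re allows up to 0.162%. The part of free RNA in the droplets in these shares was not tested. With each cell thinned to 2000 UMIs, which kept 909 conventional Cd4 cells and 1770 Cd8 cells, the shares were 38.0%, 13.9%, 6.71% and 14.6% against 4.46%, 0.734%, 0% and 0.960%.

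**Figure D1:**
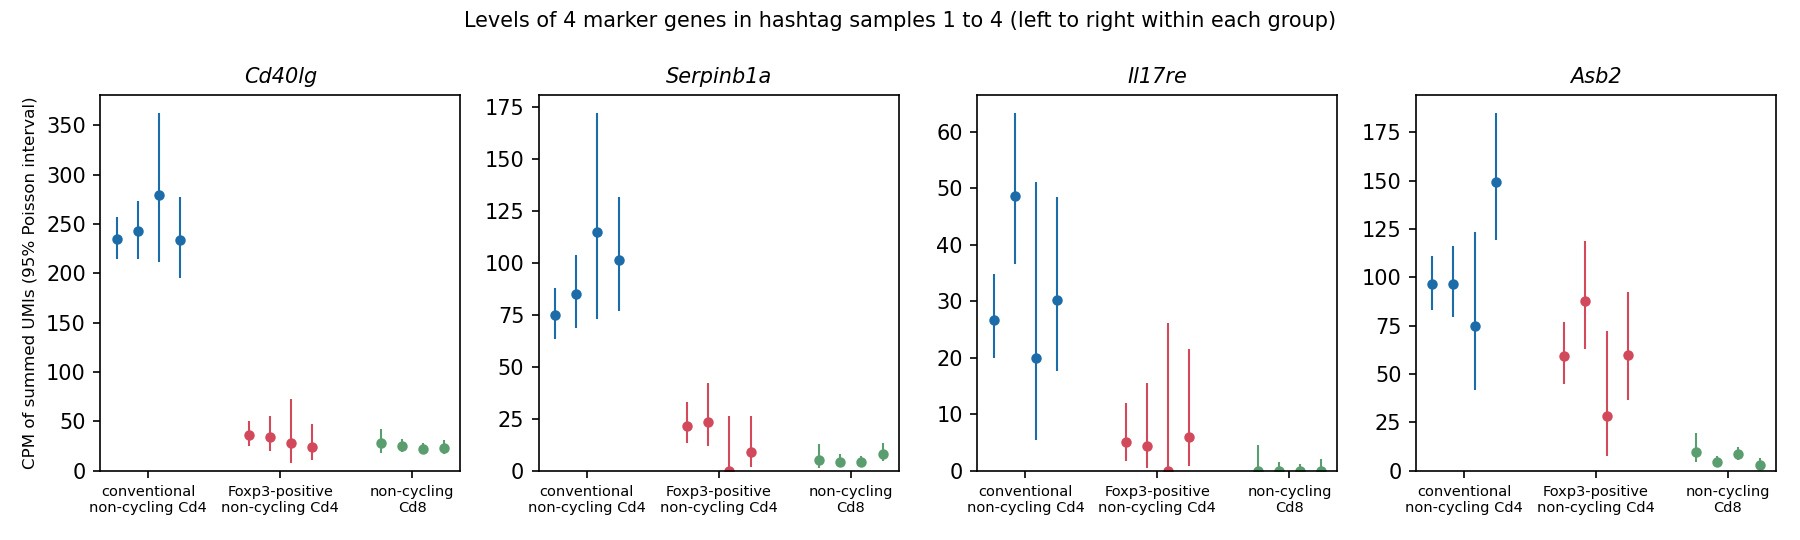
Level of Cd40lg, Serpinb1a, Il17re and Asb2 (vertical axis, CPM) in hashtag samples 1 to 4 of conventional Cd4 cells, Foxp3 cells and Cd8 cells, with exact Poisson 95% intervals as bars. Cd40lg lies between 233 and 279 CPM in conventional Cd4 cells and below 36 CPM in every sample of the other groups, while Asb2 overlaps between conventional Cd4 and Foxp3 cells.

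Against all other cells together, conventional Cd4 cells were higher in the helper molecule Cd40lg, in Th17 genes and in the remaining markers, and lower in genes of cell division and of CD8 and cytotoxic T cells. A gene was counted as higher or lower where its CPM differed at least 1.5-fold and the exact interval of the ratio left out 1, which is a rule of size and not a test. Of 9622 genes with at least 100 UMIs over both groups, 330 (3.43%) were counted as higher and 900 (9.35%) as lower. Much of the lower side follows from the rule, which took dividing cells out of one group alone. Without dividing cells among the others, 226 genes were higher and 508 lower, and of the 14 measured proliferation genes that the rule did not use, 1 was lower in place of 14.

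The genes that led on the higher side, by a rule on the log2 ratio, were the same 4 markers and a group of less familiar genes. Il17re was at 33.2 CPM against 6.10 in the other cells, 5.45-fold higher (4.25 to 6.97), and Cd40lg was 3.66-fold higher, at 239 against 65.4 CPM. Serpinb1a was 3.52-fold higher (3.06 to 4.05) and Asb2 3.03-fold (2.68 to 3.42). Tmem176a and Tmem176b, neighbouring membrane protein genes often found in Th17 cells, were 2.99-fold and 2.94-fold higher, Tmem176b at 177 against 60.1 CPM. Nebl and Actn2, genes of actin-binding proteins best known from muscle, were 3.11-fold and 2.61-fold higher, Actn2 at 140 against 53.7 CPM. Ly6g5b, Krt83, Podnl1 and Bik, the last a gene of the BCL2 family that promotes cell death, were between 2.86-fold and 3.65-fold higher. Each of these 12 genes was higher in all 4 hashtag samples.

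By lists, 8 of 9 measured Th17 genes were higher and none lower, with a median log2 ratio of 1.07, beside -0.011 over all genes tested. Of 12 helper surface molecules 6 were higher and 1 lower (median 0.48), and of 11 interferon response genes 2 were higher and none lower (0.42). On the lower side were 7 of 9 CD8 lineage genes (median -2.15), 8 of 13 cytotoxic genes (-1.05), 7 of 8 chemokines (-1.58) and 8 of 16 regulatory T cell genes (-0.55), of which 1 was higher. Dapl1 was at 3.61 against 93.6 CPM, 26.0-fold lower (15.4 to 47.6). The other 4593 cells held the 1855 Cd8 cells, the 496 Foxp3 cells, dividing cells, and also 527 cells that met every part of the rule except that they had 0 Cd4 UMIs, of which 47.4% had a Cd40lg UMI. The comparison thus mixes several contrasts and includes cells close to the rule, and the contrasts with Foxp3 and Cd8 cells follow separately. The 3 comparisons share the conventional Cd4 cells, so their values are given side by side and not as independent results.

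**Figure D2:**
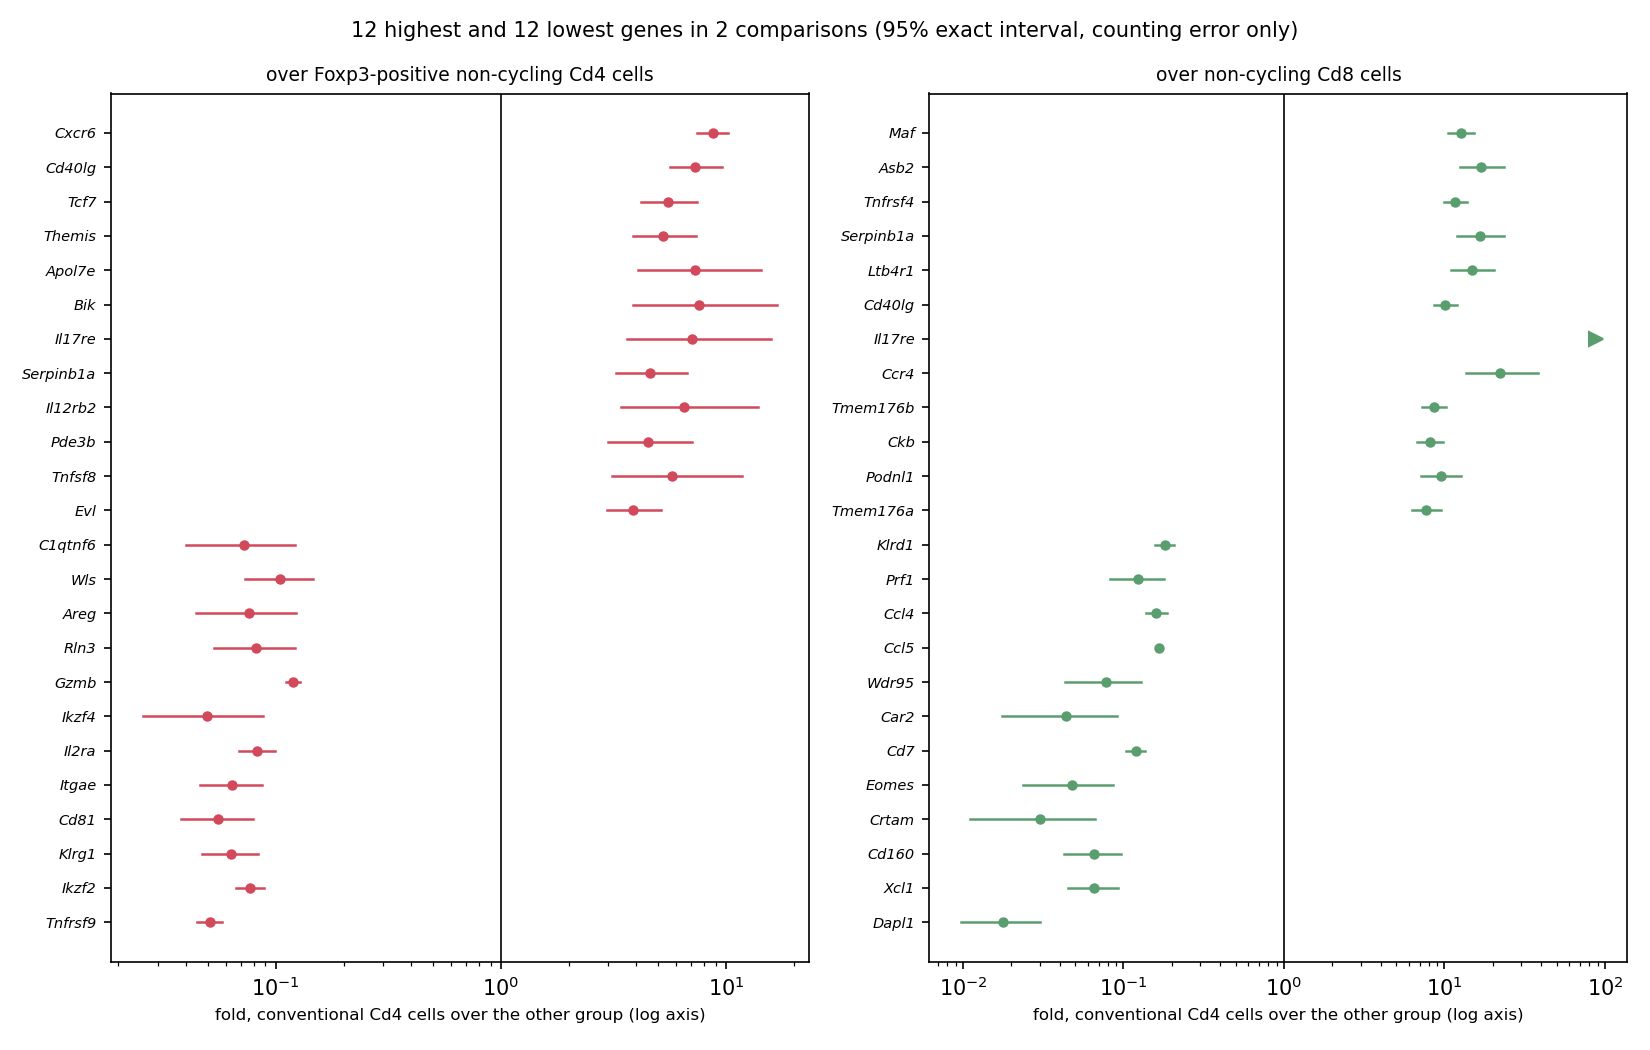
Fold difference in CPM (log axis) of the 12 highest and 12 lowest genes of conventional Cd4 cells against Foxp3 cells and against Cd8 cells, with exact 95% intervals. The triangle for Il17re against Cd8 cells is the fold of 87.6 against a floor of 3 UMIs, since no UMI was counted there.

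Against Foxp3 cells, conventional Cd4 cells were higher in Cxcr6, Cd40lg and Tcf7 and lower in the receptors of the TNF family and in the genes of the regulatory T cell program. Of 6100 genes, 379 (6.21%) were higher and 522 (8.56%) lower, around a median log2 ratio of -0.0061 over all genes tested. Cxcr6, the receptor for the chemokine CXCL16 and a gene of T cells that stay in tissue, was at 763, 781, 733 and 709 CPM in samples 1 to 4 of conventional Cd4 cells. In Foxp3 cells it was at 90.0, 98.4, 56.6 and 74.6 CPM, so that Cxcr6 was 8.73-fold higher in conventional Cd4 cells (7.47 to 10.3) with no overlap. A Cxcr6 UMI was seen in 77.0% of conventional Cd4 cells and 15.5% of Foxp3 cells, and in 63.9% and 10.5% after thinning. Cd8 cells stood between them, at 371, 439, 371 and 427 CPM.

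Tcf7 encodes TCF1, a transcription factor of naive and memory T cells. Its level was 148, 163, 185 and 173 CPM in samples 1 to 4 of conventional Cd4 cells and 30.7, 10.7, 35.4 and 44.8 CPM in Foxp3 cells, a 5.52-fold difference (4.18 to 7.41). In Cd8 cells Tcf7 was higher again, at 225 to 243 CPM. The 3 groups kept this order in every sample. Cd40lg was 7.30-fold higher than in Foxp3 cells (5.65 to 9.58), Serpinb1a 4.60-fold (3.24 to 6.72) and Il17re 7.10-fold (3.62 to 15.9). Themis, which tunes T cell receptor signals, was at 124 against 23.4 CPM (5.28-fold). Il12rb2, the receptor subunit through which interleukin 12 drives Th1 cells, was 6.49-fold higher (3.42 to 13.8), at 33.7 against 5.20 CPM.

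Of 15 measured regulatory T cell genes other than Foxp3, 14 were lower in conventional Cd4 cells and none higher, with a median log2 ratio of -2.69. Since Foxp3 itself divides these groups, this is what the rule asked for. The groups also differ in their rules on UMIs of Cd4, Cd8a and Cd8b1. Tnfrsf9, the costimulatory receptor 4-1BB, was at 81.4, 32.8, 94.8 and 81.9 CPM in samples 1 to 4 of conventional Cd4 cells. In Foxp3 cells it was at 1341, 1285, 1542 and 1283 CPM, so Tnfrsf9 was 19.6-fold lower (17.3 to 22.3) in conventional Cd4 cells. Of its UMIs in conventional Cd4 cells, 139 lay in the 36 cells of cluster 6, described further on, and 125 in the others (33.3 CPM). Ikzf2, the transcription factor Helios, was 12.96-fold lower, Il2ra, the high-affinity subunit of the interleukin 2 receptor, 12.1-fold, Ctla4, an inhibitory receptor, 6.04-fold and Lrrc32, which holds latent TGF beta on the cell surface, 32.7-fold. Nrp1 was the 1 of 15 not counted. The receptors of the TNF family moved with them, 5 of 7 being lower and none higher (median -1.95). Tnfrsf4, the receptor OX40, was at 241 against 1586 CPM, 6.58-fold lower (6.11 to 7.09), Tnfrsf18, the receptor GITR, was 4.25-fold lower and Cd27 4.16-fold.

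Granule genes did not differ from Foxp3 cells in 1 direction. Gzmb, a protease of cytotoxic granules, was at 241, 212, 299 and 344 CPM in samples 1 to 4 of conventional Cd4 cells and at 1955, 2350, 2087 and 2109 CPM in Foxp3 cells, 8.35-fold lower (7.78 to 8.96), with no overlap. Gzmc was 11.8-fold and Prf1, which encodes perforin, 2.86-fold lower. On the other side Gzmk was 3.35-fold, Fasl, the ligand of a death receptor, 3.38-fold and the receptor genes Klrc1 and Klrd1 4.19-fold and 1.86-fold higher. Of 12 cytotoxic genes 6 were higher and 4 lower, with a median of 0.47. In sample 3 alone that median was -0.26, over 6 genes measured.

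Among helper programs, Th1 genes leaned towards conventional Cd4 cells, with 7 of 11 higher and none lower (median 0.69). Ifng, the gene of interferon gamma, was at 61.8, 61.1, 44.9 and 87.2 CPM in samples 1 to 4 against 24.5, 25.7, 42.4 and 35.8 CPM in Foxp3 cells, 2.29-fold higher (1.70 to 3.14), with the ranges nearly touching in sample 3. Tbx21, the Th1 master transcription factor T-bet, was 2.53-fold higher (1.91 to 3.41), at 77.8 against 30.7 CPM. Within sample 3 alone no Th1 gene of 7 measured was counted as higher, 1 was lower, and the median was -0.07. Of 7 Th17 genes 4 were higher, namely Il1r1, Tmem176a, Tmem176b and Il22 (median 0.79). Il22, which acts on epithelia, rested on 40 UMIs in 18 conventional Cd4 cells and 1 UMI in Foxp3 cells, a ratio of 19.8 (3.36 to 801). All 3 measured Th2 genes were lower, Gata3 1.65-fold, Ccr4 2.89-fold and Il1rl1, the receptor for interleukin 33, 10.3-fold.

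Interleukin 2, a growth factor that activated conventional T cells make and regulatory T cells consume, was higher in conventional Cd4 cells. Il2 was at 25.0 against 4.68 CPM, 5.34-fold higher (2.70 to 12.02), in 8.44% of conventional Cd4 cells and 1.61% of Foxp3 cells. Of 12 glycolysis and hypoxia genes 4 were lower than in Foxp3 cells, Bnip3 3.38-fold, Hif1a 2.38-fold, Slc2a1, the glucose transporter GLUT1, 1.76-fold and Pgk1 1.51-fold, while Hk2 was 1.75-fold higher (list median -0.52). In sample 3 alone Slc2a1 and Hk2 turned, at log2 ratios of 0.22 and -0.35. The 11 interferon response genes held none that were higher or lower (median -0.14).

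Against Cd8 cells, conventional Cd4 cells were higher in Maf, Asb2, Tnfrsf4, Serpinb1a and in genes of glycolysis and the interferon response, and lower in genes of the CD8 lineage, cytotoxic granules and chemokines. The interferon genes were uneven among conventional Cd4 cells and highest in cluster 4, described further on. Of 7836 genes, 548 (6.99%) were higher and 420 (5.36%) lower, around a median log2 ratio of 0.036. With TMM scaling, an alternative scaling of the totals, 456 were higher and 494 lower. Without the 34 cells of cluster 7, which carried many UMIs of macrophage and dendritic cell genes, 446 were higher and 471 lower, and without clusters 6 and 7 the counts were 429 and 480. Maf, a transcription factor that drives interleukin 10 and parts of the Th17 program, was at 186, 263, 160 and 242 CPM in samples 1 to 4 against 41.6, 14.3, 9.43 and 22.4 CPM in Cd8 cells, 12.6-fold higher, with no overlap. Tnfrsf4 was at 283, 164, 304 and 224 CPM against 12.2, 25.6, 21.9 and 15.5 CPM, 11.7-fold higher (9.90 to 13.9). For Maf and Tnfrsf4 the Foxp3 cells were higher still, at 318 and 1586 CPM. Asb2 was 17.0-fold (12.6 to 23.4), Serpinb1a 16.6-fold (11.9 to 23.6) and Cd40lg 10.1-fold higher (8.64 to 11.9). Il17re was at least 87.6-fold higher, set against the same floor of 3 UMIs over the Cd8 cells. Ccr4, a chemokine receptor, was at 50.5 against 2.27 CPM (22.2-fold), and Ltb4r1, a leukotriene B4 receptor, was 14.8-fold higher.

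Of 6 CD4 lineage factors 1 was higher, namely Zbtb7b, and 3 were lower, namely Tox, Myb and Bach2 (median -0.23). Zbtb7b, which encodes ThPOK, the factor that fixes the CD4 lineage, was at 57.4 against 10.1 CPM, 5.68-fold higher (4.38 to 7.43). Runx3, the CD8 lineage factor, was at 131 against 201 CPM, 1.54-fold lower. All 9 CD8 lineage genes measured were lower, with Cd8a and Cd8b1 left out (median -2.96). Crtam, a receptor of cytotoxic cells, Eomes, a transcription factor of cytotoxic and memory T cells, and Xcl1, a chemokine for cross-presenting dendritic cells, were 33.2-fold, 20.9-fold and 15.3-fold lower, Xcl1 in 3 of 4 hashtag samples. Dapl1 was at 3.61 against 202 CPM, 56.0-fold lower (33.3 to 103).

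Ccl5, a chemokine made by cytotoxic T cells, was at 1548, 1962, 1636 and 1494 CPM in samples 1 to 4 of conventional Cd4 cells and between 8772 and 11211 CPM in those of Cd8 cells, 5.98-fold lower (5.83 to 6.13). No values overlapped. Of 13 cytotoxic genes 8 were lower and none higher (median -1.04), among them Prf1 8.09-fold and Klrd1 5.55-fold. Gzmb and Gzma were not counted, at 250.1 against 273 CPM and 147 against 165 CPM. Of the Gzmb UMIs, 237 lay in the 36 regulatory T cell-like cells of cluster 6, described further on. The other conventional Cd4 cells held 734, at 196 CPM. Gzma in conventional Cd4 cells varied widely between samples, at 59.8, 220, 424 and 210 CPM, and came from 7.52% of the cells. Of 12 exhaustion genes 5 were lower and none higher (median -0.18), with Pdcd1, the gene of PD-1, an inhibitory receptor, 2.34-fold and Lag3 3.15-fold lower. Ifng was 1.90-fold lower (1.66 to 2.20), and in sample 1 the direction turned, at 61.8 against 44.0 CPM. The share of cells with an Ifng UMI did not follow the level, at 15.6% against 14.7%, and at 10.3% (8.44% to 12.5%) against 8.31% (7.06% to 9.69%) with cells thinned to 2000 UMIs.

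All 12 glycolysis and hypoxia genes were higher than in Cd8 cells, with a median log2 ratio of 1.01. Aldoa, an enzyme of glycolysis, was at 1633, 1391, 1557 and 1537 CPM in samples 1 to 4 against 772, 714, 744 and 679 CPM, 2.13-fold higher (2.06 to 2.21), with no overlap. Tpi1, another glycolytic enzyme, was 3.01-fold higher (2.81 to 3.23) and Bnip3, a target of hypoxia signalling, 3.18-fold. The count was 11 or 12 and the median 0.82 to 1.10 in all alternatives over all hashtag samples or without 1 of them, and 10 of 12, 10 of 11 or 12 of 12 within single samples. Of 12 genes known to respond to tissue dissociation 7 were higher too (median 0.60), Hspa1a, a heat shock gene, 10.2-fold. The part of handling in these differences was not tested.

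Of 11 interferon response genes 9 were higher than in Cd8 cells and none lower (median 0.79). The list summed to 3119 CPM in conventional Cd4 cells and 1854 CPM in Cd8 cells. The sum was uneven among the clusters described further on, at 7675 CPM in cluster 4 and 1756 to 2253 CPM in clusters 1 to 3. Clusters 1 to 3 thus lay near the level of Cd8 cells. Isg15, a ubiquitin-like protein, was at 635, 623, 409 and 557 CPM in samples 1 to 4 against 468, 289, 294 and 310 CPM, 1.94-fold higher (1.83 to 2.05), and its ranges overlapped only through sample 1 of Cd8 cells and sample 3 of conventional Cd4 cells. Of the Isg15 UMIs in conventional Cd4 cells, 1136 lay in cluster 4 and 1228 in the others (377 CPM). Rsad2, the antiviral enzyme viperin, was 1.87-fold and Ifit1, which binds foreign RNA, 1.81-fold higher. Oasl2 was 3.40-fold higher, Ifit3 (1.04-fold) was not counted. In sample 1 alone 2 of 11 were higher and 1 lower (median 0.44). Th17 genes were higher in 7 of 7 (median 1.75). Il22 was counted 40 times in conventional Cd4 cells and never in Cd8 cells. Of 12 helper surface molecules 6 were higher and 2 lower, Icos, a costimulatory receptor, 2.15-fold higher and Cd27 4.57-fold lower.

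**Figure D3:**
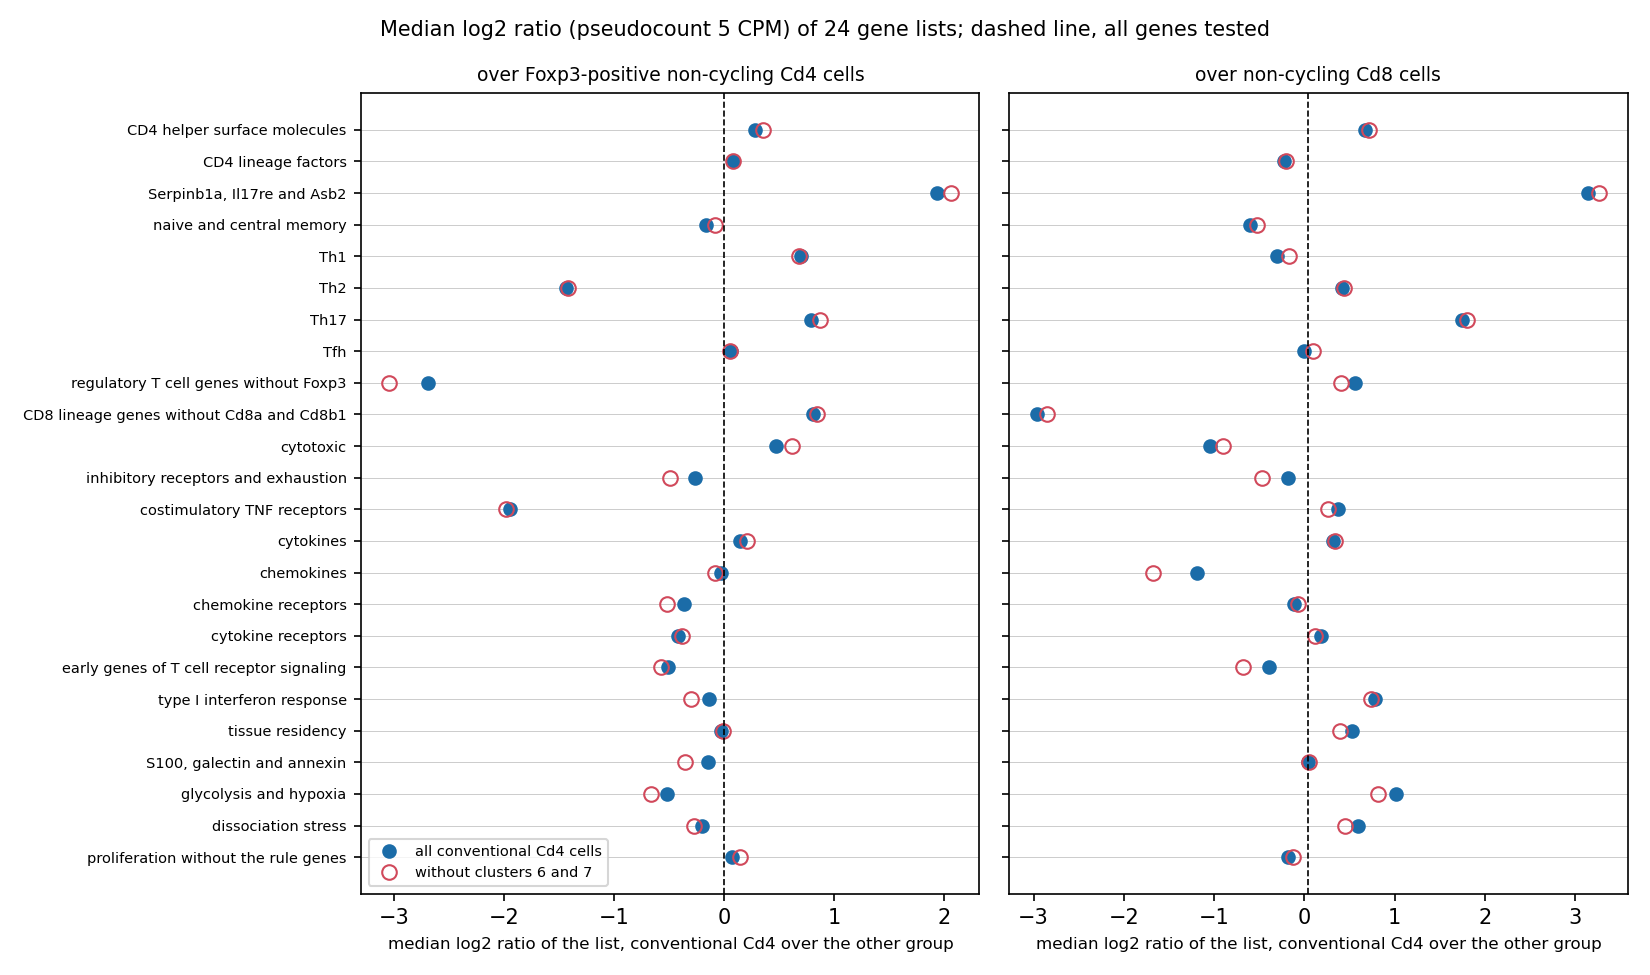
Median log2 ratio of each of 24 gene lists in conventional Cd4 cells against Foxp3 cells and against Cd8 cells (filled points), the same without the cells of clusters 6 and 7 (open points), and the median over all genes tested (dashed line). The CD8 lineage and cytotoxic lists lie left of the line and the Th17 and glycolysis lists right of it against Cd8 cells, and the regulatory T cell list lies at -2.69 against Foxp3 cells.

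The conventional Cd4 cells were clustered among themselves, on the 2000 most variable genes that encode no receptor chain, mitochondrial or ribosomal product, to describe the states they hold. This gave 7 clusters. The genes that lead a cluster were used to form it, so their values describe the clusters and are no test. The map of gene levels shows the leading genes, and the plot of shares gives the size of each cluster by hashtag sample.

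Cluster 1, the largest with 316 cells (32.5%, 29.6% to 35.6%), was cytotoxic-like, a name that rests on Gzma, Klrd1 and Klrc1 among its leading genes. The cytotoxic list summed to 4577 CPM in cluster 1 and 1901 to 2376 CPM in clusters 2 to 4. In clusters 5 to 7 it summed to 5322, 4428 and 2578 CPM, so a high sum was not particular to cluster 1. The tissue residency list summed to 2041 CPM in cluster 1 and 2924 CPM in cluster 5. For the Th1 list cluster 1 had the highest sum of all clusters, at 6806 CPM. In cluster 1 Gzma was at 406 CPM against 36.1 CPM in the other conventional Cd4 cells, 11.3-fold higher. A Gzma UMI was seen in only 14.2% of the cells of cluster 1, a Klrd1 UMI in 23.1% and a Klrc1 UMI in 22.2%. Ccl5 was seen in 70.6%, at 3537 against 863 CPM. Genes of tissue-resident T cells went along, with the integrin gene Itga1 6.85-fold and Zfp683, which encodes the residency factor Hobit, 3.86-fold higher, and Cxcr6 at 1087 CPM. Nkg7, a membrane protein of cytotoxic granules, was at 1522 CPM, while Prf1 was at 18.9 CPM and Tbx21 at 114 CPM. Cd40lg was at 254 CPM, much as in clusters 2 to 4, while Serpinb1a (37.8 CPM) and Il17re (8.58 CPM) were lowest here among the first 4 clusters.

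Cluster 2 held 208 cells (21.4%) and is left without a cell type name. Tcf7 was at 433 against 103 CPM and was seen in 65.9% of its cells, and it was the highest of the 7 clusters for Il7r, the receptor for the survival factor interleukin 7 (1041 CPM), and for Klf2 (745 CPM) and S1pr1 (215 CPM), which serve exit from tissue. Of the naive T cell genes, Ccr7, the receptor that guides cells to lymph nodes, was at 39.0 CPM. Gzmb (35.8 CPM), Nkg7 (200 CPM) and Cxcr6 (461 CPM) were lower in cluster 2 than in clusters 1, 3 and 4. Ccr6, a chemokine receptor of Th17 cells, was at 68.6 CPM, above the 56.0 CPM of cluster 3.

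Cluster 3 with 177 cells (18.2%) was Th17-like, from Th17 markers among its leading genes, Tmem176a and Tmem176b among them. Tmem176b was at 415 against 122 CPM, in 48.0%, and Il17re at 80.6 against 22.2 CPM, in 26.6%. The Th17 list summed to 1099 CPM in cluster 3, the highest of the 7 clusters, and to 249, 846 and 610 CPM in clusters 1, 2 and 4. In clusters 5 to 7 it summed to 162, 521 and 335 CPM. A raised sum was thus not particular to cluster 3, with cluster 2 next. Serpinb1a (171 CPM) and Asb2 (150 CPM) were higher in cluster 3 than in clusters 1, 2 and 4. The cytokine that names the program was almost missing, with Il17a at 6.83 CPM in cluster 3 and at 0 in clusters 1, 2 and 4. Il22 was at 28.7 CPM, Ifng at 87.4 CPM and Lta, which encodes lymphotoxin alpha, at 86.1 CPM. The markers given for conventional Cd4 cells were thus not even among them: Cd40lg ran through clusters 1 to 5 at 254 to 300 CPM, whereas Il17re and Serpinb1a were highest in cluster 3.

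Cluster 4 with 162 cells (16.7%) was interferon-responding, and holds the genes whose promoters are printed above. Rsad2 was at 351 against 37.1 CPM and seen in 45.7% of its cells, Ifit3 at 593 against 78.3 CPM in 64.8%, and Ifit1 at 658 against 116 CPM in 76.5%. Isg15 was at 1815 CPM, beside 355, 198 and 239 CPM in clusters 1 to 3. The summed CPM of the interferon list was 7675 in cluster 4 and 1756 to 2253 in clusters 1 to 3. In clusters 5 to 7 it was 1497, 3271 and 4052. Of the markers, Serpinb1a was at 95.9 CPM and Il17re at 46.3 CPM, between the levels of clusters 1 and 3. In hashtag sample 3 the cluster held 2 of 54 cells (3.70%, 0.452% to 12.7%), against 16.8%, 19.3% and 15.4% in samples 1, 2 and 4.

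**Figure D4:**
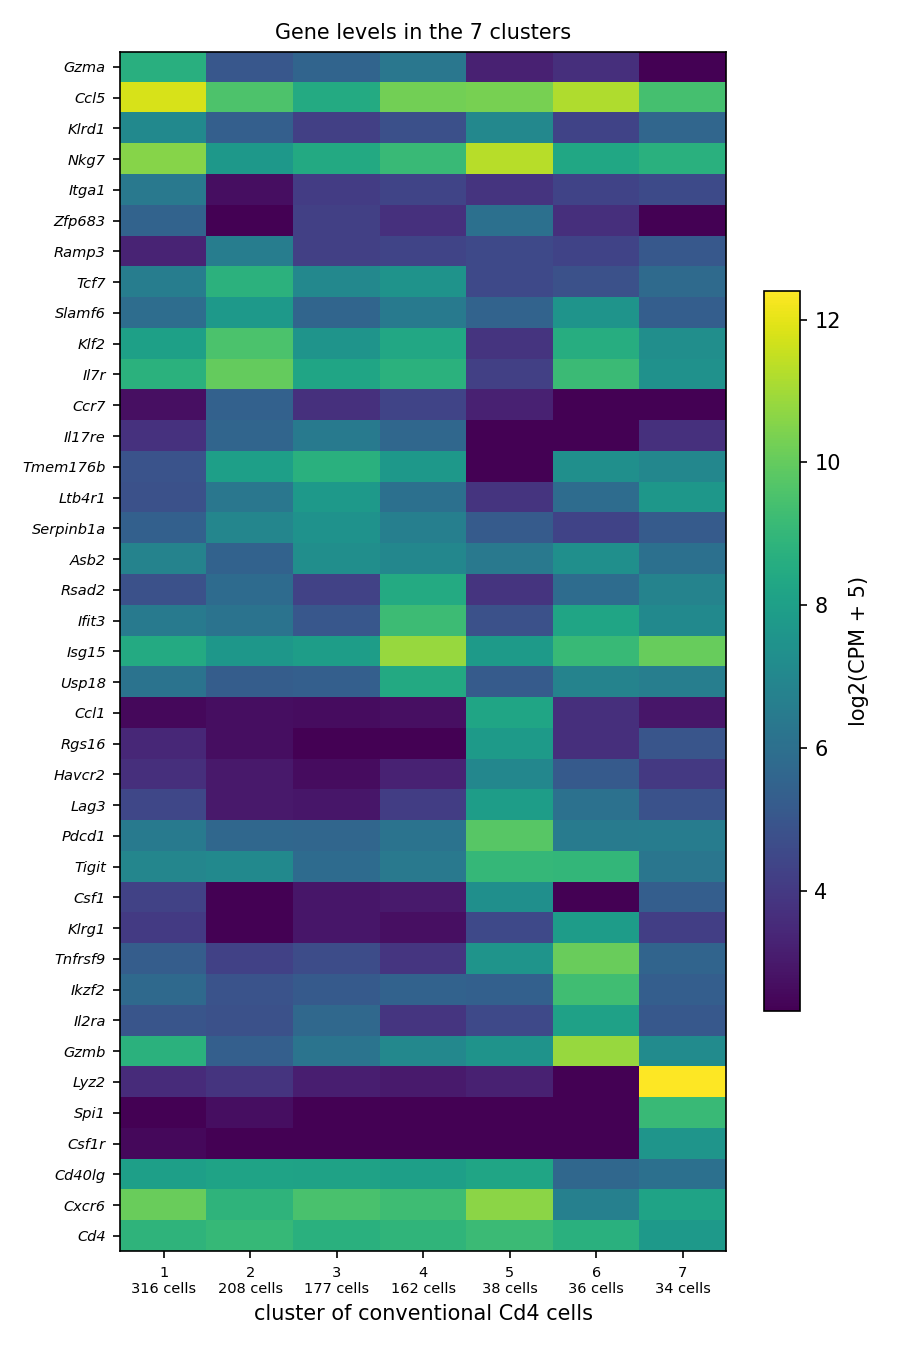
Level of 39 genes in the 7 clusters of conventional Cd4 cells, as log2(CPM + 5). Lighter colours are higher levels, and Rsad2 and Ifit3 are lightest in cluster 4, Tcf7 in cluster 2, Tmem176b in cluster 3, and Lyz2 in cluster 7.

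Cluster 5 was small, with 38 cells (3.91%, 2.78% to 5.33%), and is left unnamed. It was led by Ccl1, a chemokine that draws CCR8-bearing cells, at 300 against 1.64 CPM and in 23.7% of cells, and by the inhibitory receptor genes Lag3 and Havcr2, 17.98-fold and 19.1-fold higher, with Csf1, the growth factor of macrophages, 16.9-fold higher. Pdcd1 was at 873 CPM, in 92.1% of its cells, beside 45.1 to 81.5 CPM in clusters 1 to 4. Tox, a factor of chronically stimulated T cells, was at 134 CPM beside 12.8 to 27.5 CPM, Ifng at 263 CPM and Nkg7 at 2546 CPM, the highest of the 7 clusters. Tcf7 (18.5 CPM), Il7r (13.9 CPM) and Klf2 (9.24 CPM) were the lowest of the 7, and Prf1 was at 0. Of its cells 25 came from hashtag sample 1, 7 from sample 2, 1 from sample 3 and 5 from sample 4. Their median of 4973 UMIs lay above those of clusters 1 to 4 and 6, and 9 of 38 had the sign of doublets.

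Cluster 6 held 36 cells (3.71%) that were regulatory T cell-like although the rule left no Foxp3 UMI in any of them. Tnfrsf9 was at 1080 against 33.3 CPM and in 72.2% of cells, and Ikzf2 at 629 against 38.1 CPM in 75.0%. Gzmb was at 1841 against 196 CPM in 55.6%. Tnfrsf4 was at 1600 CPM, close to the 1586 CPM of Foxp3 cells. Cd40lg was at 46.6 CPM and Cxcr6 at 101 CPM, near the 32.8 and 86.9 CPM of Foxp3 cells rather than the levels of clusters 1 to 4. The median depth was 2927 UMIs, below the 3560 of all 971 cells. Without clusters 6 and 7 the regulatory T cell list had a median of -3.04 against Foxp3 cells, in place of -2.69. Against Cd8 cells its count went from 8 higher and none lower of 14 to 5 higher and 3 lower of 13.

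Cluster 7 with 34 cells (3.50%) was led by genes of macrophages and monocytes and gets no T cell name. Lyz2, which encodes lysozyme, was at 5373 against 5.70 CPM and in 94.1% of cells, and Spi1, Arg1 and Ccl7 led with it. A UMI of the T cell receptor gene Cd3e was seen in 31 of the 34 cells, and 28 of 34 had UMIs of both Cd3e and Csf1r, the macrophage growth factor receptor. The median was 10740 UMIs, beside 3027.5 to 3797 in clusters 1 to 4, and all 34 cells had UMIs of other cell types. Summed macrophage markers were at 11004 CPM in cluster 7 and at 13.9 to 61.8 CPM in clusters 1 to 6. Summed dendritic cell markers were higher still, at 21464 CPM in cluster 7 and at 22.4 to 746 CPM in clusters 1 to 6. The cells of cluster 7 set the macrophage and monocyte counts against the other groups: with them 6 of 10 such genes were higher than in Cd8 cells, and without them 9 of 9 measured were lower. Only conventional Cd4 cells were left out for this, while the Cd8 cells kept their 6.79% with UMIs of other cell types. The turn thus follows from leaving out cells on 1 side alone. The glycolysis count against Cd8 cells went from 12 to 11 and its median from 1.01 to 0.87 without cluster 7, and the interferon count from 9 to 7 and its median from 0.79 to 0.73.

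**Figure D5:**
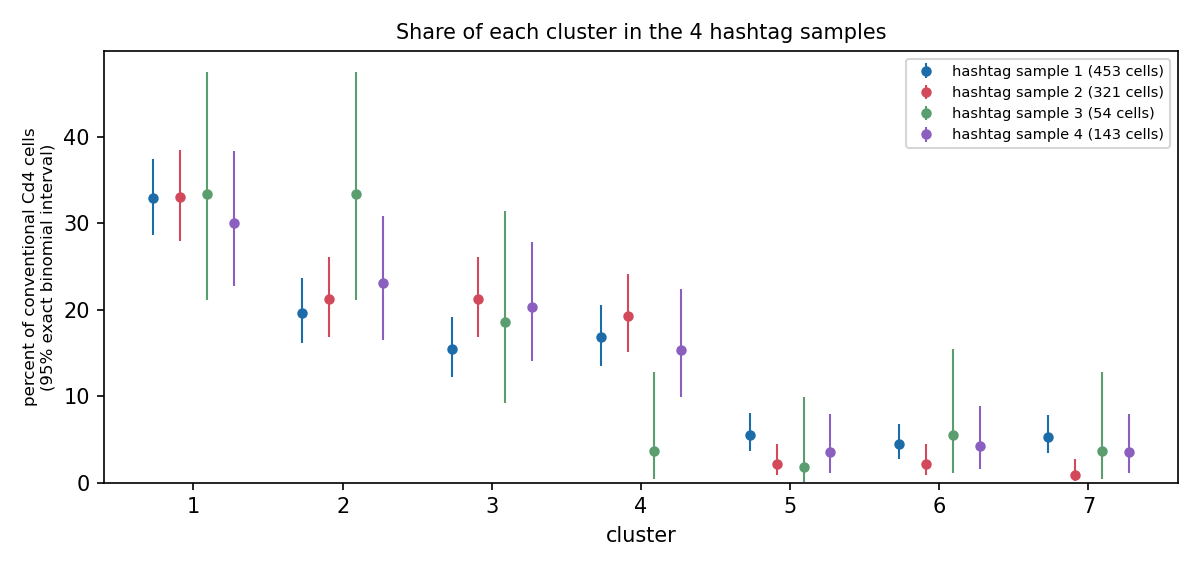
Share of each hashtag sample's conventional Cd4 cells in each cluster (percent, with exact binomial 95% intervals). Cluster 1 makes up 30.1% to 33.3% of every sample, and cluster 4 falls to 3.70% in sample 3.

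Cluster shares were similar over the hashtag samples for cluster 1 (32.9%, 33.0%, 33.3% and 30.1% in samples 1 to 4) and cluster 3 (15.5%, 21.2%, 18.5% and 20.3%). Cluster 2 made up 19.6%, 21.2%, 33.3% and 23.1%. Other settings of the clustering gave 5 to 10 clusters. Cluster 7 stayed together in the 5 settings that held it, and the setting that left out cells carrying macrophage and other foreign transcripts held none of it. For cluster 5, between 86.8% and 100% of cells stayed in 1 cluster. Of cluster 1 only 41.1% to 63.3% did, and cluster 4 was absorbed in a cluster of 390 cells at the coarsest setting and kept 32.1% of its cells together after thinning. Cluster 6 kept 83.3% to 100% of its cells together. With 10 principal components, most cells of clusters 5 and 6 fell in 1 cluster of 85 cells, and after thinning most of cluster 6 joined cells of clusters 1 and 4 in a cluster of 225. Clusters 2 and 3 fell mostly in 1 cluster of 482 cells at the coarsest setting and of 359 with 30 neighbours. The borders among clusters 1 to 6 thus moved with the settings.

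The beta chain V genes of the T cell receptor were left out of the clustering and of CPM totals, and give a readout that the rule did not use. In 668 conventional Cd4 cells exactly 1 Trbv gene had 2 or more UMIs. Trbv13-2 was used by 97 of them (14.5%, 11.9% to 17.4%), Trbv1 by 93 (13.9%) and Trbv3 by 73 (10.9%), against 4.40%, 2.58% and 2.16% of 1433 Cd8 cells and 7.85%, 8.19% and 7.85% of 293 Foxp3 cells. Trbv1 made up 15.2%, 12.9%, 14.3% and 11.8% in hashtag samples 1 to 4. Trbv12-1, which was seen in 439 of 1433 Cd8 cells (30.6%), was seen in 3 of 668 conventional Cd4 cells (0.449%, 0.0927% to 1.31%). It has a near-identical copy, Trbv12-2, so the split between those is uncertain.

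V gene use varied between clusters. In cluster 1, 53 of 225 cells used Trbv1 (23.6%, 18.2% to 29.7%), at 26.4%, 20.8%, 25.0% and 20% in hashtag samples 1 to 4, beside 8.67%, 7.48% and 13.4% in clusters 2 to 4. In cluster 5, 15 of 28 cells used Trbv13-2 (53.6%, 33.9% to 72.5%) and 8 of 28 used Trbv3 (28.6%), with 10 and 6 of the 20 cells from sample 1. Cells of 1 clone share their V gene, and clones were not followed here, so cells with the same V gene are not independent.

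A deposited table of 138 surface antibodies was too sparse to type the cells. It holds 4315 counts, of which 720 fell on 463 conventional Cd4 cells. The CD4 antibody took 31 of those 720 counts, 8 of 508 on Foxp3 cells and 2 of 1113 on Cd8 cells. The CD5 antibody took 51, 26 and 30 counts, and the Cd5 transcript was 2.71-fold higher than in Cd8 cells. The antibody counts are so few that they describe groups and no single cell.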

How the data were processed

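The gene table deposited by the authors gives unnormalized counts (UMIs) for 14811 genes in 5564 cells of 1 library (5′ droplet kit, per the labels' protocols), and their antibody table gives such counts for 138 antibodies. Hashtag and T cell receptor libraries were not analysed here. The submitters' processing notes name Cell Ranger 3.1.0, Seurat 3.2.3 and build mm10 but no role for them. How the authors filtered cells, removed doublets or called identity and class was not given in the sources used here, and the classes may rest on lineage transcripts of the same cells. The conventional Cd4 cells and all gene lists were chosen with earlier results of these data known, so the leading genes are descriptions.

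Summed counts of each group were turned into CPM without 117 receptor and immunoglobulin genes (0.325% of UMIs), with exact Poisson intervals, exact conditional binomial intervals for ratios and exact (Clopper-Pearson) intervals for shares, all at 95% (Python 3.11.15, scipy 1.17.1). A pseudocount of 5 CPM entered log2 ratios, not folds. A list member was measured with at least 20 UMIs over both groups. The rule for naming genes took, in each comparison, the 12 largest and 12 smallest log2 ratios of genes that reached 20 CPM and a UMI in 5% of cells in the higher group, the 8 highest folds per cluster among genes with at least 20 UMIs and a UMI in 10% of its cells, the given markers and list members, of which a part is named, and some genes are left out. The other genes named within clusters were chosen after their values were seen. Clusters came from scanpy 1.11.5 and igraph 0.11.9 (20 principal components, 15 neighbours, Leiden resolution 0.5). No doublet caller was run, and cells with the doublet sign were kept and left out as an alternative. Other alternatives were TMM scaling (edgeR 4.0.16), mean per-cell CPM, cells thinned to 2000 UMIs, other UMI minimums and pseudocounts, stricter cell rules, and single hashtag samples or all but 1. The ratio step was tested on simulated counts.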

Additional observations from a re-analysis of the deposited data

How the results depend on the processing

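Of 122 recounts of higher and lower genes over the alternatives, 90 stayed within 1.5 times the value given. Among 1993 recomputed log2 ratios for 90 gene and comparison pairs, 4 turned, all within a single hashtag sample. Against Foxp3 cells these were Slc2a1 (0.22) and Hk2 (-0.35) in sample 3. Against Cd8 cells they were Xcl1 (0.67) and Ifng (0.45) in sample 1. A turn was counted only for pairs counted as higher or lower in the main comparison. Other UMI minimums and pseudocounts cannot turn a log2 ratio, so their part of the 1993 could hold no turn. Against all other cells the counts of higher and lower genes were 216 and 534 with cells thinned to 2000 UMIs, higher genes were 520 with no minimum of UMIs, and lower genes were 508 without dividing cells, an alternative chosen after seeing the data, as were those without clusters 6 and 7. Against Foxp3 cells they were 639 and 888 with a minimum of 20 UMIs and 676 and 1081 with none. Against Cd8 cells they were 1124 and 675 with no minimum, with 945 higher at a minimum of 20 UMIs and 345 higher after thinning. Fewer genes reached the minimum after thinning or within 1 hashtag sample. Sample 1 alone gave 148 and 571 against all other cells, 237 higher against Foxp3 cells, and 271 and 167 against Cd8 cells. Sample 2 alone gave 182 and 260 against Foxp3 cells and 288 and 228 against Cd8 cells. Sample 3 alone gave 303 lower against all other cells, 30 and 62 against Foxp3 cells, and 272 and 161 against Cd8 cells. Sample 4 alone gave 210 and 491, 86 and 126, and 169 and 187. Leaving out each hashtag sample in turn gave 248 to 344 higher and 791 to 881 lower genes against all other cells, 271 to 376 and 379 to 505 against Foxp3 cells, and 455 to 548 and 347 to 384 against Cd8 cells. TMM scaling gave 444 higher and 460 lower against Foxp3 cells. The number of clusters ranged from 5 to 10. No paired analysis was possible because all cells come from 1 pool and no test was made. Depth limits most the values of hashtag sample 3, with 54 conventional Cd4 cells, and of clusters 5 to 7, with 34 to 38 cells each.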
